A study of Mus musculus with 4 samples.

Results

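The open chromatin of 10 genes of the NF-kB pathway and of inflammatory secretion was compared between MSCs kept at 2 oxygen levels. The genes were 4 pathway regulators (Nfkb1, Rela, Nfkbia and Tnfaip3), 5 secreted factors (Il6, Ccl2, Ccl7, Cxcl1 and Csf1) and the prostaglandin enzyme Ptgs2. A peak, that is a stretch of open DNA, was taken as a member where it overlapped a gene or the 10 kb on either side of it (GENCODE M21), which gave 54 of the 128055 peaks in the table. The regulators held 31 of these peaks, the secreted factors 16 and Ptgs2 7. Ccl2 and Ccl7 are neighbours and shared both of their peaks, which were counted once.

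The cells were endosteal MSCs from the bones of C57BL/6 N wild-type male mice aged 3 to 5 months, named bone-marrow MSCs in the sample labels. They grew out of collagenase-treated bone at 2% O2, were sorted on day 12 by the sample labels (a drawing of the isolation in the study gives another day) as CD45-, Ter-119-, Sca-1+ and CD140a+ cells, and then spent a week at 2% O2 (hypoxia) or 21% O2 (normoxia). Open DNA was read by ATAC-seq, which relies on the cuts of the Tn5 transposase, in 2 libraries per condition. These are described as biologically independent. The p-values below set a difference against the spread between these 4 libraries, estimated mostly over all peaks or genes together and not from a single peak alone.

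NF-kB dimers, among them the p50 and RelA products of Nfkb1 and Rela, are held in the cytoplasm by inhibitors of the IkB family. When receptors for cytokines or microbial products signal, the inhibitor is degraded, and the dimer enters the nucleus and binds kappaB sites. Its targets include its own inhibitors, which end the response, and genes for chemokines, cytokines and prostaglandin synthesis. In bone, MSCs and osteoblasts are sources of CSF1 and of several of these signals, which act on blood and bone-resorbing cells.

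Promoter sequences of 7 of the 10 genes were found in the RefSeq promoter table (build GRCm38.p6), as 8 sequences of 300 bases. Nfkb1, Ccl2 and Ccl7 had no entry. A match to the kappaB consensus on either strand was present in 5 of the 8 sequences, against 8.46% of 32817 RefSeq promoters of that length. The 250 bases before the RefSeq start site of these 5 genes are shown, because an open promoter peak covered each of them in both conditions. Capitals mark the kappaB match, and each sequence is written 5′ to 3′ in the direction of transcription.
Nfkbia promoter, chr12:55492648-55492897, minus strand: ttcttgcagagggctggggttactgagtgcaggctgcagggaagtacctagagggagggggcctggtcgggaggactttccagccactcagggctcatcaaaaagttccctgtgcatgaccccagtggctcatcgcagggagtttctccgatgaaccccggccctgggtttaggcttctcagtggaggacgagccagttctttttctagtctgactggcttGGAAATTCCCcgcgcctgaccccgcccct
Tnfaip3 promoter, chr10:19015411-19015660, minus strand: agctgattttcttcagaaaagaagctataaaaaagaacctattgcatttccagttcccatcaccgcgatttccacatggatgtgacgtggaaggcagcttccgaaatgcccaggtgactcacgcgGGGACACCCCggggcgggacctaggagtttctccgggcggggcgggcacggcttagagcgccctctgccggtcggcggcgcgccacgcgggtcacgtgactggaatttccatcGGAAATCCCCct
Il6 promoter, chr5:30012864-30013113, plus strand: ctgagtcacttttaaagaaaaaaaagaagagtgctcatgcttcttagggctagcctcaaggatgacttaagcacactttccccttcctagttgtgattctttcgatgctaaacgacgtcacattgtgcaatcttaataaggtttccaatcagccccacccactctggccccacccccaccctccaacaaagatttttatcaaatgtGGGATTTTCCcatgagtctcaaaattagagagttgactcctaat
Cxcl1 promoter, chr5:90890995-90891244, plus strand: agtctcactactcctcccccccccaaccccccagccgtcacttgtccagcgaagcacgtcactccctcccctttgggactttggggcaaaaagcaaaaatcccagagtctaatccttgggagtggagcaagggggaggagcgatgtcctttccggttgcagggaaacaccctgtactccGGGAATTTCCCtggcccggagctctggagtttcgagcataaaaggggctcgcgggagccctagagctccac
Csf1 promoter, chr3:107760470-107760719, minus strand: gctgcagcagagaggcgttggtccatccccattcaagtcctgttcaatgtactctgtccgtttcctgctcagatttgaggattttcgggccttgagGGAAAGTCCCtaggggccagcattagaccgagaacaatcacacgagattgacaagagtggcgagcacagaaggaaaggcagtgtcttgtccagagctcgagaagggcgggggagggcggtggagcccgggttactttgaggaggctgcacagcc

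The match began 29 bases before the start site in Nfkbia, 44 bases before it in Il6 and 154 bases before it in Csf1. Tnfaip3 had matches at 125 and 12 bases before the start site, and Cxcl1 a pair that overlapped, at 71 and 70 bases. These distances count from RefSeq start sites. For Tnfaip3 that site is chr10:19015410, while the peak distances below use the GENCODE start at chr10:19015657, past which both matches lie, inside the gene. No match was found in the sequence of Rela, in that of Ptgs2 or in that of a second, internal Tnfaip3 start. Over all member peaks the consensus occurred 48 times in 171.4 kb, or 0.280 times per kb (overlapping matches counted once), beside 0.214 per kb over all peaks. It occurred at 0.297 per kb in regulator peaks and 0.263 per kb in those of the secreted factors. These are matches of letters and not measured binding.

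The deposited value of a peak is a signal, the reads in the peak scaled by the library total and not divided by peak width. Library totals lay between 26680936 and 29965523 reads, but nuclear peaks held 49.2% and 53.2% of them in hypoxia against 31.0% and 35.2% in normoxia. Over the whole table the median log2 fold change, normoxia over hypoxia, was −0.44 for deposited values, −0.0040 after scaling by relative log expression (RLE) size factors, and 0.14 after scaling to an equal total over nuclear peaks. Values per library are given as deposited, and fold changes, unless said otherwise, as log2 of normoxia over hypoxia after RLE scaling, from limma on log2(value + 1). A peak was called at a false discovery rate (FDR) under 0.01, adjusted by Benjamini-Hochberg over all peaks. The calls rest on the shared spread of trend and robust estimation, without which 0 peaks in the whole table were called. In a bulk culture, fewer cells with an open site and less opening per cell cannot be told apart.

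Open promoters of marker genes were read as a check of the cell type. All 12 MSC marker genes had a promoter peak, with a summed signal of 2862 and 3027 in hypoxia against 1572 and 1668 in normoxia. Of 12 blood cell markers 7 had one (Spi1, Adgre1, Csf1r, Cd68, Lyz2, Cd14 and Laptm5). Their sum lay between 675 and 695 in hypoxia and between 435 and 474 in normoxia. Cd68 held most of it, with 489 and 457 in hypoxia against 287 and 319 in normoxia. Ptprc, Itgam, Vav1, Cd79a and Cd3e had none. Erythroid markers (4 of 5 with a peak, Alas2 without) summed to 107 to 179 over the 4 libraries, and endothelial markers (3 of 5, Cdh5 and Emcn without) to 58.5 to 96.6. No promoter peak of these 3 lists of other cell types was called in either direction. Of the 17 promoter peaks of the MSC markers 5 were called lower, beside 16.7% of all promoter peaks. They lay at Ly6a (which encodes the sort marker Sca-1), Col1a1, Cdh11, Twist1 and Cd44. The rest were not called, and Eng (log2 fold change 0.73, FDR 0.026) and 1 Pdgfra peak (0.25) were positive. Some MSC markers thus moved with the members. The part that other cell types or the MSC marker changes had in the results was not tested.

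Of the 54 member peaks, 8 were called lower in normoxia (14.8%) and 0 higher. Over all peaks 4.57% were called lower and 1.77% higher. At an unadjusted p under 0.05, 20 member peaks were lower and 2 higher (16.8% and 12.5% of all peaks), and edgeR on the recovered reads called 9 lower and 1 higher (5.70% and 2.54%). Without hypoxia replicate 1, or without hypoxia replicate 2, 0 member peaks were called and 0 in the whole table. Without normoxia replicate 1, the called peaks of Nfkb1 and Tnfaip3 were no longer called. A fit without 1 library leaves 1 library in its group. The number of calls moved with the library left out, among the members and in the whole table. Promoter peaks and strong peaks were called more often throughout the genome: 16.7% of 17661 promoter peaks were lower, with a median log2 fold change of −0.27, as were 28.4% of the 12806 peaks with the highest mean value, with a median of −0.33. Of the 673 peaks of at least 10 kb, a width that the peaks of Csf1, Ccl7, Nfkbia and Ptgs2 exceed, 23.3% were lower, with a median of −0.19. The member peaks had a median of −0.35. Without the 9 member peaks that the peak caller gave to hypoxia only, a choice made after seeing the data, 7 of 45 were lower (15.6%, beside 4.30% of all peaks without that label) and the median was −0.19.

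In deposited values, 43 of the 54 peaks had normoxia below hypoxia in every pair of libraries, beside 59.5% of all peaks. Normoxia lay above hypoxia in 1 peak, and the groups overlapped in 10. After RLE scaling, normoxia lay below hypoxia in 28 peaks (29.6% of all peaks) and above it in 10 (27.4%), and the groups overlapped in 16. Counts under other scalings differed. With values as deposited 25 member peaks were called lower (24.0% of all peaks) and 0 higher (0.391%). With equal totals 5 were called lower (1.95%) and 2 higher (3.22%), and with cyclic loess normalization 2 lower (1.16%) and 2 higher (1.27%). The plot of fold changes shows the calls spread over 6 of the 10 genes.

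**Figure D1:**
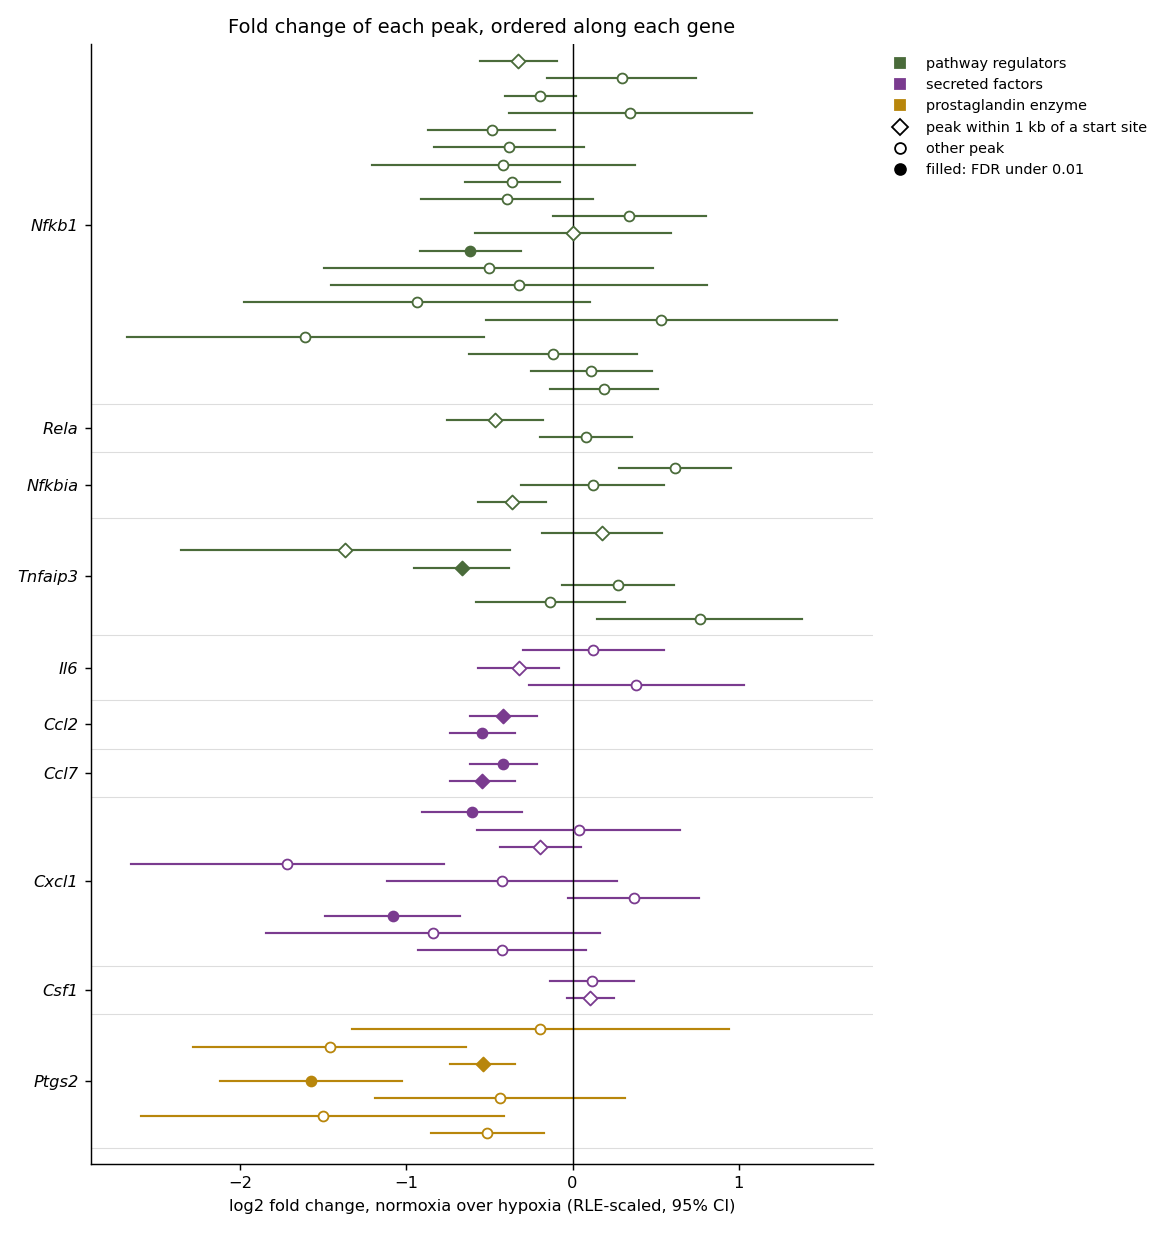
Each row is a member peak, with its log2 fold change (normoxia over hypoxia, RLE-scaled, limma) and the 95% confidence interval on the x axis, grouped by gene and ordered along the direction of transcription, with the peaks shared by Ccl2 and Ccl7 drawn under both. Diamonds are peaks within 1 kb of a start site and filled symbols are the 8 peaks with an FDR under 0.01, all of them left of 0, while all 7 peaks of Ptgs2 lie left of 0 (3 of them were given to hypoxia only, and 1 is positive with quantile and cyclic loess normalization) and both of Csf1 just right of it (negative as deposited).

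Among the regulators, 2 of 31 peaks were called, both lower (6.45%, beside 4.57% of all peaks). The median log2 fold change of the 31 was −0.19 (−0.12 without hypoxia-only peaks). Nfkb1, which encodes the p105 precursor of the p50 subunit, held 20 peaks over a gene of 106893 bp. Its promoter peak (chr3:135688101-135693500) had a signal of 189 and 213 in hypoxia against 107 and 123 in normoxia. Both normoxia libraries were lower as deposited, and the fold change after scaling was −0.33 with a standard error of 0.11 (FDR 0.050), which missed the threshold. The called peak of Nfkb1 covered an exon 96.1 kb into the gene (chr3:135593901-135596900), with 88.5 and 84.0 in hypoxia against 37.1 and 43.4 in normoxia. The groups did not overlap, and the fold change was −0.61 with a standard error of 0.15 (FDR 0.0054). With equal totals, quantile and cyclic loess normalization it was −0.46, −0.47 and −0.45 and not called. A weak peak at an internal start site (chr3:135606901-135608000), with 14.5 and 9.86 in hypoxia against 8.25 and 9.01 in normoxia, had a fold change of 0.00. Of the 20 peaks of the gene, 13 had a negative fold change and 7 a positive one.

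Rela, which encodes the transactivating subunit RelA, had 2 peaks. The promoter peak (chr19:5636301-5638900) held 94.5 and 92.5 in hypoxia against 48.0 and 48.7 in normoxia. The 2 libraries of each condition lay close together and the conditions far apart as deposited, yet after scaling the fold change of −0.47 with a standard error of 0.14 had an FDR of 0.025 and was not called. The other peak, 12.5 kb from the start site, over the end of the gene, had 84.6 and 101.0 in hypoxia against 64.8 and 76.1 in normoxia. Its fold change was 0.08.

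Nfkbia encodes IkB-alpha, the inhibitor that NF-kB itself induces. Its promoter peak was 13.6 kb wide and ran over the whole gene (chr12:55480501-55494100), with 345 and 364 in hypoxia against 182 and 215 in normoxia. Normoxia was lower in both libraries, and the fold change was −0.36 with a standard error of 0.10 (FDR 0.0129), just outside the threshold. It was 0.01 with quantile and 0.05 with cyclic loess normalization.

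A peak 6.9 kb upstream of Nfkbia (chr12:55498201-55500900) was singled out after its values were seen. It had 38.6 and 39.4 in hypoxia against 41.2 and 45.7 in normoxia. It was the only one of the 54 in which both deposited normoxia values lay above both hypoxia values, a pattern found in 6.94% of all peaks. The fold change was 0.62 with a standard error of 0.17 (FDR 0.0110), not called. It was called higher with equal totals (0.77, FDR 0.0026), with cyclic loess (0.70, FDR 0.0083) and by edgeR (0.63, FDR 0.0058), and not with quantile normalization (0.70, FDR 0.0132). Over the alternatives the FDR of this peak ran from 0.0026 to 0.587. A ratio within a library is the same under any scaling by 1 factor per library: the log2 ratio of this peak to the Nfkbia promoter peak was −3.16 and −3.21 in hypoxia against −2.14 and −2.23 in normoxia. The groups of ratios did not overlap, and their pooled SD between libraries was 0.05. With cyclic loess, which is not such a scaling, the 2 fold changes differed by 0.65. The stretch of this peak around its AP-1 match, read from the RefSeq GRCm38 genome like the other peak stretches, is shown because of its deposited values. After RLE scaling, normoxia lay above hypoxia in 7 of the 31 regulator peaks, a smaller share than the 27.4% of all peaks. Capitals mark TGACTCA or its reverse complement, a motif present in 36.6% of all peaks, and there was no kappaB match in the 300 bases.
Nfkbia upstream peak, chr12:55499856-55500155, plus strand: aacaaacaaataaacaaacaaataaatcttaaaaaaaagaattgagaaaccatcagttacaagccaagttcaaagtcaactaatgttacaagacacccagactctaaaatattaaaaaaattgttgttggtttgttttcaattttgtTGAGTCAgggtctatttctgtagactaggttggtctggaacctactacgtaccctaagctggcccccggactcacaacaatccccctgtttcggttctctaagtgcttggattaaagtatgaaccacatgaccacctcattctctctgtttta

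Tnfaip3 encodes A20, a ubiquitin-editing enzyme that restrains signalling to NF-kB and is induced by it. The peak at its start site (chr10:19014101-19016000) had 120 and 134 in hypoxia against 47.6 and 68.1 in normoxia. Each normoxia library stood well below both hypoxia libraries, and the fold change was −0.67 with a standard error of 0.14 (FDR 0.0016). It was −0.46 and −0.44 with quantile and cyclic loess normalization, and not called with either. This peak holds both kappaB matches of the Tnfaip3 sequence above. A 200-bp shoulder beside it, given by the peak caller to hypoxia only, had 2.83 and 4.76 in hypoxia against 0.375 and 0.667 in normoxia (−1.37, FDR 0.053). The next peak upstream, 3.3 kb wide and 2.2 kb from the start site, had 44.9 and 44.5 in hypoxia against 40.9 and 32.4 in normoxia. Its fold change was 0.18 with a standard error of 0.18, so of the 3 promoter peaks of Tnfaip3 only that on the start site was called. A weak peak 19.1 kb past the start site had 6.37 and 9.52 in hypoxia against 8.25 and 12.3 in normoxia. Its fold change of 0.76 (FDR 0.084) was the highest of all member peaks and was not called.

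**Figure D2:**
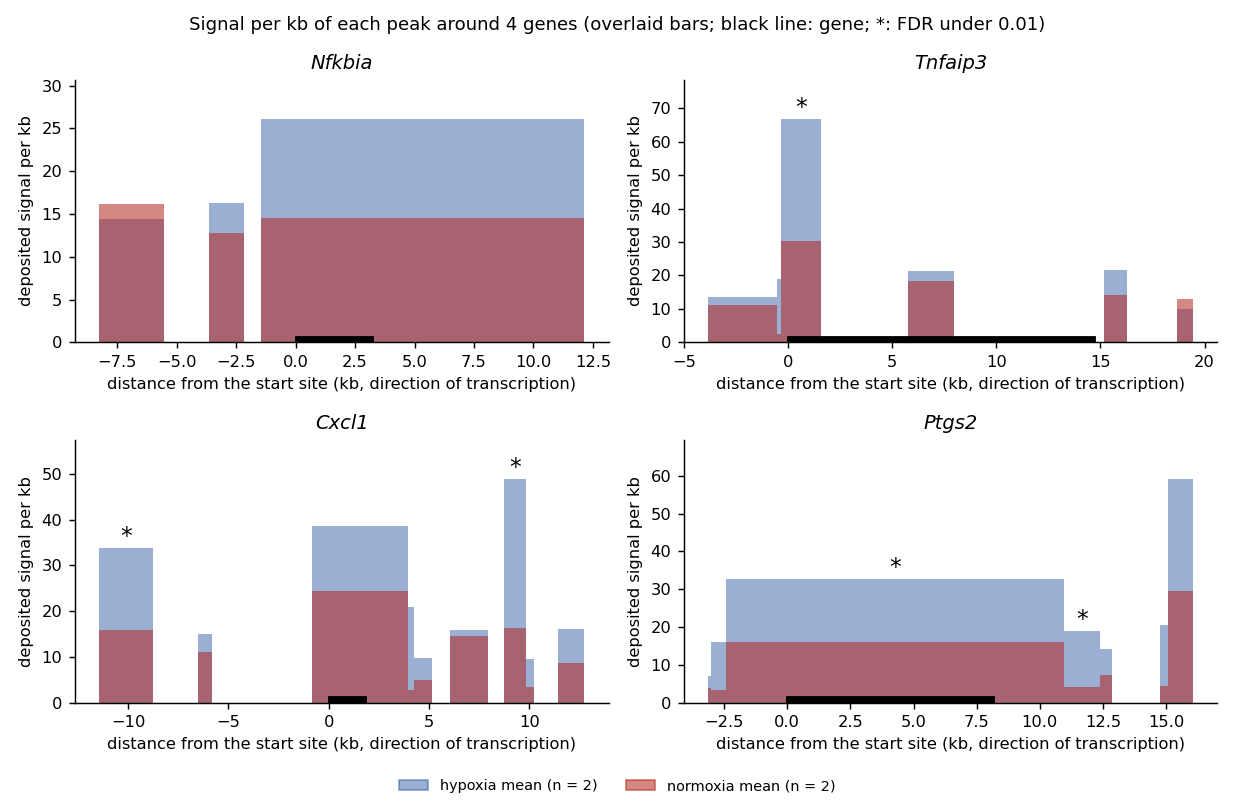
Bars span each peak at its distance from the gene's start site (x axis, kb, in the direction of transcription), and their height is the deposited signal per kb, as the mean of 2 hypoxia libraries (blue) laid over the mean of 2 normoxia libraries (red), around Nfkbia, Tnfaip3, Cxcl1 and Ptgs2. The red bar stands above the blue one at the Nfkbia peak 6.9 kb upstream and at the Tnfaip3 peak 19.1 kb past the start site (12.9 and 9.93 per kb). The peak at the Tnfaip3 start site stands at 66.8 per kb in hypoxia and 30.4 in normoxia, and stars mark peaks with an FDR under 0.01.

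Among the secreted factors, 4 of 16 peaks were called, all lower (25.0%, beside 4.57% of all peaks and 28.4% of the strongest peaks). The median of the 16 was −0.37 (−0.26 without hypoxia-only peaks). Il6, which encodes the cytokine interleukin-6, had 3 peaks. Its promoter peak (chr5:30012201-30015100) held 163 and 175 in hypoxia against 87.7 and 107 in normoxia. The groups did not overlap as deposited. The fold change was −0.32 with a standard error of 0.12 (FDR 0.065) and was not called. The 2 flanking peaks, 5.7 kb upstream and 5.4 kb into the gene, had fold changes of 0.13 and 0.38, and in both the deposited values were low, between 6.72 and 31.9 in the 4 libraries.

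Ccl2 and Ccl7 encode monocyte chemoattractants. The peak over the Ccl2 promoter (chr11:82031901-82037200) had 359 and 417 in hypoxia against 190 and 228 in normoxia. The groups were far apart, and the fold change was −0.42 with a standard error of 0.10 (FDR 0.0047). With cyclic loess normalization it was 0.01 and not called.

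A block of 14.3 kb that ran on over Ccl7 (chr11:82037901-82052200) had 660 and 777 in hypoxia against 299 and 415 in normoxia. It lies within 1 kb of the start sites of Ccl7 and of Gm17268, and its signal cannot be assigned to either. The fold change was −0.54 with a standard error of 0.10 (FDR 0.0003), and it was −0.03 and not called with cyclic loess. The Ccl2 promoter peak held 4 kappaB matches and the Ccl7 block 2.

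Cxcl1, a neutrophil chemoattractant, had 9 peaks in a span that also covers the promoter of its neighbour Cxcl2. Its promoter peak (chr5:90890401-90895200) had 172 and 199 in hypoxia against 100 and 134 in normoxia, and a fold change of −0.19 with a standard error of 0.12 (FDR 0.297). It was 0.13 with both quantile and cyclic loess normalization. The promoter was thus not called, while a peak on either side of it was.

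The upstream peak, 10.1 kb from the start site (chr5:90879801-90882500), had 80.7 and 102 in hypoxia against 40.9 and 44.4 in normoxia. The normoxia libraries were close to each other and below both hypoxia libraries (−0.60, standard error 0.15, FDR 0.0054). With equal totals, quantile and cyclic loess normalization the call was lost, at −0.46, −0.46 and −0.43. The downstream peak, 9.3 kb past the start site (chr5:90900001-90901100), had 51.0 and 56.4 in hypoxia against 21.4 and 14.7 in normoxia. It had the larger fold change, −1.08 with a standard error of 0.20 (FDR 0.0005), and it remained called with quantile (−1.09) and cyclic loess normalization (−1.07, FDR 0.0013), with an FDR from 7.6e-08 to 0.179 over all alternatives. The peak over the Cxcl2 start site (chr5:90902701-90904000) held 19.5 and 22.1 in hypoxia against 8.62 and 13.7 in normoxia (−0.42, FDR 0.261). The called downstream peak lies between it and the Cxcl1 promoter peak, so its signal cannot be assigned to either gene. The downstream stretch around the AP-1 match is shown, as 1 of the 2 peaks called under every scaling tried. The peak caller gave this peak to both conditions, and the other of the 2 to hypoxia only.
Cxcl1 downstream peak, chr5:90900735-90901034, plus strand: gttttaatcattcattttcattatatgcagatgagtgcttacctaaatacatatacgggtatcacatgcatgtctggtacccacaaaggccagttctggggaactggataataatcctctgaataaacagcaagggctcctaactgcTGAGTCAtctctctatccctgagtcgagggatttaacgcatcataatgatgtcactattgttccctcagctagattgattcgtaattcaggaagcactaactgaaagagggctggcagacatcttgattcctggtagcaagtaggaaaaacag

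Csf1 encodes the growth factor of macrophages and osteoclast precursors. A single peak of 35.1 kb covered the gene (chr3:107726101-107761200), with 1440 and 1650 in hypoxia against 1178 and 1204 in normoxia. Normoxia was below hypoxia as deposited, by less than at the strongest promoter peak of each of the other 9 genes, and after RLE scaling the fold change was 0.11 with a standard error of 0.07 (FDR 0.319). The direction of Csf1 depended on the scaling: it was −0.37 as deposited (FDR 0.043), 0.26 with equal totals (FDR 0.0036, called higher), 0.14 with quantile and 0.74 with cyclic loess normalization (called higher). Its FDR over the alternatives ran from 8.6e-09 to 0.819. The upstream peak of 9.7 kb, with 120 and 143 in hypoxia against 103 and 101 in normoxia, had a fold change of 0.12.

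Ptgs2 encodes cyclooxygenase 2, the inducible enzyme of prostaglandin synthesis. All 7 of its peaks had a negative fold change under RLE scaling, with a median of −0.54, and 2 were called (28.6%, beside 4.57% of all peaks). The peak caller gave 3 of the 7 to hypoxia only, which fixes their direction. Of the other 4 there was 1 called (25.0%, beside 4.30% of all peaks without that label), with a median of −0.48. The narrowest, of 100 bp, was 0.37 with quantile and 0.45 with cyclic loess normalization, and the other 6 were negative under every scaling tried. A peak of 13.4 kb covered promoter and gene (chr1:150097601-150111000), with 416 and 461 in hypoxia against 210 and 222 in normoxia. The 2 libraries of each condition lay close together, and the fold change was −0.54 with a standard error of 0.10 (FDR 0.0003). With cyclic loess it was −0.10 and not called.

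The peak that abuts it (chr1:150111001-150112400), which the peak caller gave to hypoxia only, had 22.6 and 30.3 in hypoxia against 4.50 and 7.34 in normoxia. Both normoxia values were far below hypoxia, with 12 to 89 reads behind the 4 values. The fold change was −1.57 with a standard error of 0.27 (FDR 0.0002), and it was −1.71 with quantile and −1.76 with cyclic loess normalization, called in both. The label comes from these same libraries and fixes the direction, so these calls are no separate evidence that the peak was lower. Over all alternatives its FDR ran from 8.9e-08 to 0.175. A peak 15.6 kb past the start site had 57.7 and 60.5 in hypoxia against 26.2 and 33.0 in normoxia (−0.51, FDR 0.034). The middle 300 bases of the hypoxia-only peak are shown, as the other peak called under every scaling, with a direction fixed by its label. They hold neither a kappaB nor an AP-1 match, so there are no capitals.
Ptgs2 downstream peak, chr1:150111551-150111850, plus strand: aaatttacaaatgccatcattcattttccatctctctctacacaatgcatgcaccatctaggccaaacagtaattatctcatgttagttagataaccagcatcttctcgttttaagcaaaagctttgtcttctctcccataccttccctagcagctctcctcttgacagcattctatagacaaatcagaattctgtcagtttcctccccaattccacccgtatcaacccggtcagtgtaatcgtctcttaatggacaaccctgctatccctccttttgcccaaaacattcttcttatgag

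Of the 54 member peaks, 9 had been given to hypoxia only by the peak caller, against 6.84% of all peaks, and 0 to normoxia only. These 9 peaks were narrow, from 100 to 1400 bp, and held 0 to 89 reads. Their fold changes ran from −1.71 to −0.50. The negative sign follows from that label, as 97.4% of all hypoxia-only peaks had one, and is no result about the members. The Ptgs2 peak was called, and the other 8 were not, beside 8.24% of all hypoxia-only peaks called lower.

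Levels of different promoters were compared per kb of peak, on deposited signal, with the strongest promoter peak of each gene. In hypoxia the Ccl2 peak was highest at 73.2 per kb, then Tnfaip3 at 66.8, Il6 at 58.3, Ccl7 at 50.2 and Csf1 at 44.0. Cxcl1 (38.7), Nfkb1 (37.2) and Rela (36.0) followed, and Ptgs2 (32.7) and Nfkbia (26.1) were lowest. The libraries of neighbours overlapped between Ccl2 and Tnfaip3 and all along the order from Ccl7 to Rela, while the other neighbours were separate. In normoxia Ccl2 was again highest at 39.4 and Nfkbia lowest at 14.6, but Csf1, at 33.9, stood next to Ccl2, and Tnfaip3, at 30.4, came after Il6 at 33.5. The libraries of Csf1, Il6 and Tnfaip3 overlapped there, so their order in normoxia was within the spread. Wide peaks such as those of Csf1, Ptgs2 and Nfkbia average over the gene body and the promoter.

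The signal was also summed over all peaks of each gene and its flanks, and the sums of the 4 libraries were compared between conditions in 1 limma fit over 18163 protein-coding genes. The sum was called lower for Ptgs2, Ccl2, Ccl7 and Cxcl1 (4 of 10 genes) and higher for 0, beside 26.3% lower and 2.42% higher over all genes. Ccl2 and Ccl7 hold the same peaks and hence the same sum, so these are 3 of 9 distinct spans (33.3%), not far from the share over all genes. At FDR under 0.05, 5 genes were lower (36.3% of all genes). EdgeR on the recovered reads called 5 lower and 0 higher (26.0% and 2.47%). As deposited, 10 gene sums were called lower (78.8% of all genes) and 0 higher (0.226%). With equal totals 3 were lower (9.89%) and 1 higher (6.48%), and with cyclic loess 0 were lower (3.37%) and 1 higher (3.33%).

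Summed signal at Ptgs2 was 514 and 582 in hypoxia against 245 and 273 in normoxia, and the groups did not overlap. The fold change was −0.60 with a standard error of 0.09 (FDR 2.3e-09), at percentile 2.66 of all genes. For the shared Ccl2 and Ccl7 span the sum was 1019 and 1194 in hypoxia against 489 and 643 in normoxia, with a fold change of −0.50 (standard error 0.08, percentile 7.30). Cxcl1 had 378 and 443 in hypoxia against 211 and 251 in normoxia (−0.35, standard error 0.09, FDR 0.0011, percentile 20.8). These 3 spans were called lower under RLE scaling and as deposited, but none of them with cyclic loess, where the fold changes were −0.24, −0.02 and −0.18. Cxcl1 was also not called with equal totals (−0.20).

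The sums of the regulators and of Il6 were not called under RLE scaling, with fold changes between −0.23 and −0.17, close to the median of −0.16 over all genes. Nfkb1, with 902 and 969 in hypoxia against 538 and 610 in normoxia, was just outside the threshold (FDR 0.0105). Csf1 had the highest value of the 10, 0.11 at percentile 83.5, from sums of 1560 and 1793 in hypoxia against 1280 and 1306 in normoxia. As deposited it was called lower (−0.37), and with equal totals (0.26) and cyclic loess (0.72) it was called higher.

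**Figure D3:**
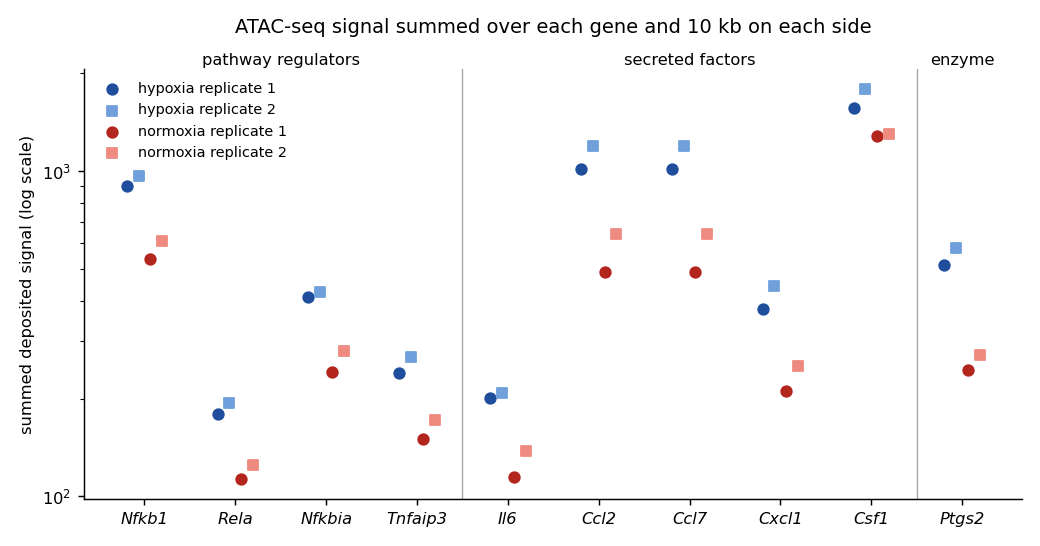
Deposited signal summed over all peaks of each gene and 10 kb on either side (y axis, log scale) in each of the 4 libraries, with circles for replicate 1 and squares for replicate 2. Red symbols (normoxia) lie below blue ones (hypoxia) at all 10 genes, with the widest gap at Ptgs2 and the narrowest at Csf1. Ccl2 and Ccl7 are the same sum drawn under both names. As deposited, 78.8% of all gene sums were called lower.

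Ratios between genes of the same library do not change when each library is divided by 1 factor, as in RLE scaling or equal totals, but they do with quantile and cyclic loess normalization. The log2 ratio of Ptgs2 to Csf1 was −1.60 and −1.62 in hypoxia against −2.38 and −2.26 in normoxia. The difference was −0.71, with a pooled SD of 0.06. These 2 sums had the lowest and the highest fold change of the member genes, so a wide gap follows from setting them against each other. The ratio of Ccl2 to Csf1 differed by −0.60 (SD 0.18), that of Cxcl1 to Csf1 by −0.46 (SD 0.11) and that of Il6 to Csf1 by −0.33 (SD 0.14). Against Nfkbia, whose own sum was not called, Ptgs2 differed by −0.39 (SD 0.07) and Ccl2 by −0.29 (SD 0.12). From the fold changes with cyclic loess, the same differences were −0.95, −0.73 and −0.89 against Csf1 (Ptgs2, Ccl2, Cxcl1), and −0.37 and −0.15 against Nfkbia (Ptgs2, Ccl2). With 2 libraries against 2 the smallest p of an exact two-sided permutation test is 0.333, so these ratios carry no test.

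**Figure D4:**
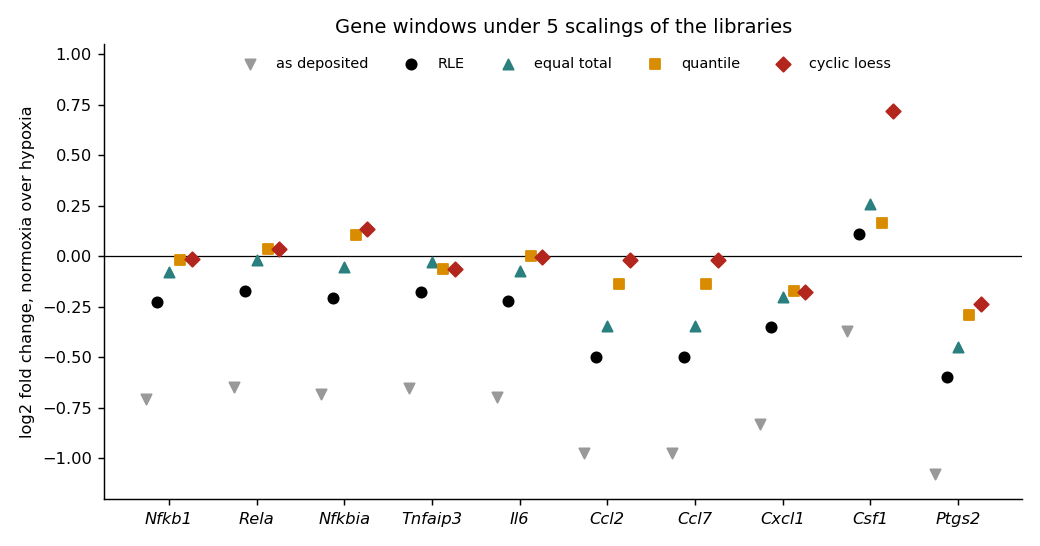
Log2 fold change, normoxia over hypoxia, of the summed signal of each gene (y axis) under 5 scalings of the libraries, with 1 symbol per scaling. Ptgs2 and Cxcl1 lie below 0 under all 5, Ccl2 and Ccl7 move from −0.97 as deposited to −0.02 with cyclic loess, and Csf1 runs from −0.37 to 0.72.

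The regulators and the secreted factors were then set against each other. The difference between their medians was 0.18, with the secreted factors lower. For each library the median deviation of a class from its peaks' own means was taken, and the regulators minus the secreted factors gave −0.05 and −0.12 in hypoxia against 0.10 and −0.10 in normoxia. The libraries overlapped, and the difference of 0.09 between conditions was smaller than the pooled SD of 0.11. With peaks over the gene bodies alone the difference of the medians had the opposite sign, −0.09. A contrast between the classes was thus not detectable beyond the spread between libraries.

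Ptgs2, an enzyme and not a secreted factor, was described apart. Its median deviation was 0.25 and 0.30 in hypoxia against −0.50 and −0.29 in normoxia. The difference of −0.67 exceeded the pooled SD of 0.11, while that of the regulators was −0.19 (SD 0.05) and that of the secreted factors −0.28 (SD 0.11). Without hypoxia-only peaks the differences were −0.49 (SD 0.05) over the 4 peaks of Ptgs2, −0.08 (SD 0.04) for the regulators and −0.23 (SD 0.08) for the secreted factors. Whether Ptgs2 differed from the classes was not tested.

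**Figure D5:**
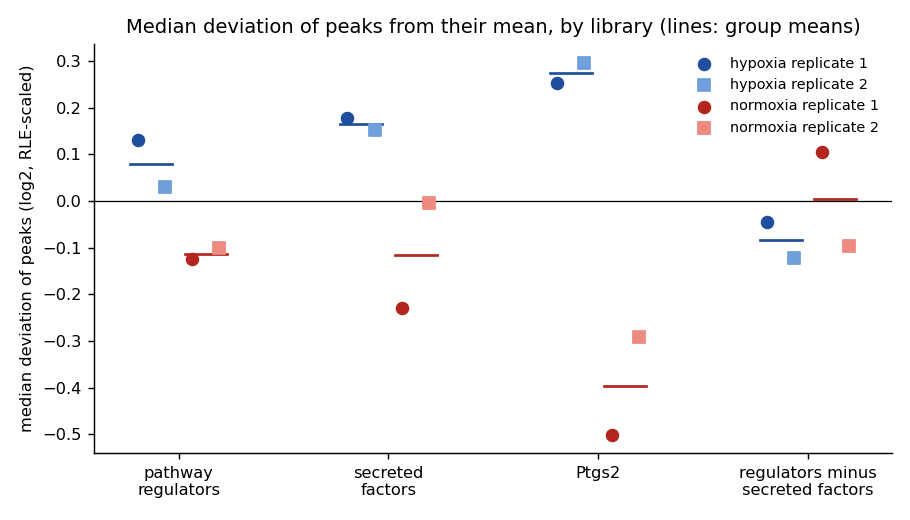
Median deviation of the peaks of each class from their own means over the 4 libraries (y axis, log2, RLE-scaled), with 1 point per library and a line at each group mean. The difference between regulators and secreted factors, at the right, overlaps between the conditions, and the 2 groups of Ptgs2 stand 0.67 apart, with 3 of its 7 peaks given to hypoxia only.

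The wider pathway was read from 102 further genes in 6 lists, at the peaks within 1 kb of a start site. A promoter peak was present for 86 of these genes, 122 peaks in all. Of these, 31 were called lower (25.4%) and 0 higher, beside 16.7% and 0.442% of all promoter peaks. At an unadjusted p under 0.05, 7 were higher (12.5% of all peaks), and edgeR called 30 lower and 1 higher (5.70% and 2.54% of all peaks). The median was −0.26, beside −0.27 for all promoter peaks, and with cyclic loess 3 were called lower and 1 higher (1.16% and 1.27% of all peaks). Shares of promoter peaks alone are given here only for the RLE fit at FDR under 0.01. The other counts are thus no result about the pathway. Of the 31 called lower, 26 were negative and 5 positive with cyclic loess: Map3k14 (0.05), Myd88 (0.03), Tnfrsf1a (0.18), Zfp36 (0.16) and Gadd45b (0.08). The peak caller gave 2 of the 31, at Bcl3 and Ltbr, to hypoxia only.

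In the NF-kB and IkB family, 5 of 14 peaks were called lower (35.7%, beside 16.7% of all promoter peaks and 28.4% of the strongest peaks). They lay at Rel, which encodes the subunit c-Rel, at Nfkbiz, a nuclear inhibitor-like cofactor, and at Bcl3, another nuclear member of the IkB family, which had 3 of them. The widest Bcl3 peak had 547 and 626 in hypoxia against 238 and 273 in normoxia, with no overlap (−0.72). Among the IKK complex and receptor signalling genes, 10 of 34 were called lower (29.4%), near the share of the strongest peaks. There were 2 at Ikbkg, the regulatory subunit of the kinase, and 1 each at Tbk1 (−0.06 with cyclic loess), Ripk1, Map3k14, Myd88, Irak4, Tnfrsf1a, Tlr4 and Ltbr. Tlr4, the receptor for bacterial lipopolysaccharide, had 332 and 407 in hypoxia against 139 and 195 in normoxia (−0.68).

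Of the feedback inhibitors, 6 of 18 peaks were called lower, at Cyld and Otulin, which remove ubiquitin chains, at Zc3h12a and Zfp36, which act on inflammatory messenger RNAs, and at Irak3 and Trib3. The Irak3 peak had 151 and 180 in hypoxia against 63.7 and 83.4 in normoxia (−0.69). With cyclic loess 0 of the 6 were called, and Cyld (−0.04) and Zc3h12a (−0.03) were near 0. The 6 of 18 (33.3%) stood beside 16.7% of all promoter peaks and the 28.4% of strong peaks given above.

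A promoter peak was present for 14 of the 25 chemokine and cytokine genes. Of their 17 peaks 3 were called lower (17.6%, near the 16.7% of all promoter peaks), at Cxcl5, Il1rn and Il11. Cxcl5, a neutrophil chemoattractant like Cxcl1, had 69.4 and 73.1 in hypoxia against 25.5 and 32.4 in normoxia (−0.81), and it was also called with cyclic loess (−0.71).

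Among other inducible targets, 5 of 24 peaks were called lower (20.8%, beside 16.7% of all promoter peaks), among them those at Birc3, Birc2, Gadd45b and Plaur. Of the receptors and signalling genes of interleukin-6 and CSF1, 2 of 15 were called lower (13.3%), below the share of all promoter peaks. They lay at Osmr, the receptor subunit for oncostatin M, and at Ptger4, a receptor for prostaglandin E2. Lifr, a receptor subunit for leukaemia inhibitory factor chosen here after its values were seen, had 66.9 and 66.6 in hypoxia against 57.0 and 84.4 in normoxia. Its fold change of 0.53 was not called under RLE scaling (FDR 0.017) and was called higher with cyclic loess (0.71).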

How the data were processed

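The authors mapped ATAC-seq reads of 4 libraries to mm10 with bowtie2, removed duplicates with Picard and called 1 peak set over both conditions with chromstaR in differential mode. The deposited values, named RPKM by the authors, hold a signal for each peak, with no division by width. In each library 100% of values were whole multiples of 1 step (tolerance 0.01), so whole reads were recovered. Whether these are fragments is not given in the sources used here.

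Values were divided by RLE size factors (1.13 and 1.23 in hypoxia, 0.81 and 0.89 in normoxia). A pseudocount of 1 was added, and limma 3.58.1 in R 4.3.3 (trend, robust, two-sided) was fitted over all 128055 peaks with no filter, and over 18163 gene sums, with Benjamini-Hochberg adjustment and FDR under 0.01. The pseudocount understates the fold change of low peaks. EdgeR 4.0.16 and DESeq2 1.42.0 on recovered reads were alternatives. The functions were tested on simulated data. Named were all peaks within 1 kb of a member's start site, up to 3 called peaks per gene with the lowest p, and the genes of called promoter peaks in each pathway list, of which 1 is not reported here. Members and lists were chosen with earlier results of these data known. The study describes a sorted population divided between the 2 oxygen levels, so libraries of the same isolation could form pairs. No pairing of libraries is stated. Same-numbered libraries did not deviate together over all peaks (correlation 0.011). At 33 to 48 reads in the median peak of a library, this cannot show that pairing is absent. The numbers were not taken as pairs, and a fit with them as a block is given below. Peak stretches were read from GRCm38 and promoters from RefSeq, with motifs searched on both strands by exact match.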

Additional observations from a re-analysis of the deposited data

How the results depend on the processing

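Calls depended on the scaling of the libraries. With values as deposited, equal totals, quantile and cyclic loess normalization, 25, 5, 2 and 2 member peaks were called lower, 75, 18, 5 and 3 wider pathway peaks, and 10, 3, 1 and 0 gene sums. Called higher were 2 member peaks with equal totals and 2 with loess, 2, 1 and 1 pathway peaks with equal totals, quantile and loess, and 1 gene sum each with equal totals and loess. Quantile normalization called 972 of 128055 peaks lower and 1204 higher, and the shares of all peaks for the other scalings are given above. Shares of promoter peaks alone are not given for these scalings, so the pathway counts are no result about the pathway. The medians under the 4 scalings were −0.59, −0.043, 0.0037 and −0.00073 for regulators and −0.82, −0.22, −0.11 and −0.030 for secreted factors. Their difference was 0.029 with loess, −0.087 over gene bodies alone and 0.064 without peaks at other start sites.

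Without trend and robust estimation, 0 member peaks, 0 pathway peaks and 0 gene sums were called. The same held for all 128055 peaks and all 18163 gene sums, so this is no result about the members. At FDR under 0.05, 14 member peaks were lower and 1 higher, and 3 pathway peaks were higher, beside 12390 lower and 6890 higher of 128055 peaks. DESeq2 called 4 member peaks lower (3350 of the 23778 peaks it gave an FDR), and gene bodies alone held 5. A minimum mean value of 5 gave 1 member and 1 pathway peak called higher (2946 of 109015 peaks), as did edgeR (3257 of 128055). The regulator median was −0.11 with a pseudocount of 5, −0.057 with the minimum of 5, −0.13 with edgeR, −0.14 with DESeq2, −0.35 over gene bodies and −0.12 without peaks given to hypoxia only, an alternative chosen after seeing the data. Leaving out 1 library at a time gave 0 to 12 member peaks lower, 0 to 35 pathway peaks lower and 0 to 1 higher, regulator medians from −0.22 to −0.061 (the latter without hypoxia replicate 1) and secreted medians from −0.36 to −0.18 (the latter without normoxia replicate 1).

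With the replicate number as a block, 11 member peaks were called lower and 1 higher, and 1 pathway peak was higher. Over all 128055 peaks 8468 were then lower and 3912 higher. The replicate numbers mark no stated pairing.

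Signs also changed for single values. The internal Nfkb1 promoter peak was −0.43 as deposited, −0.20 with quantile, −0.23 with loess, −0.0044 with a pseudocount of 5 and −0.020 with edgeR, and it ranged from −0.31 to 0.30 when 1 library was left out. With quantile normalization the Nfkb1 promoter peak was 0.0037, the Nfkbia one 0.013, the Cxcl1 one 0.13, and the sums of Rela, Nfkbia and Il6 0.038, 0.10 and 0.0038. With loess the promoter peaks of Nfkbia, Ccl2 and Cxcl1 were 0.050, 0.0088 and 0.13, and the sums of Rela and Nfkbia 0.035 and 0.13. The upstream promoter peak of Tnfaip3 was −0.29 as deposited and from −0.046 (without normoxia replicate 1) to 0.41 when 1 library was left out, and the Csf1 peak and sum were −0.37 as deposited. The cause of these changes was not tested. With 33 to 48 reads in the median peak of a library, differences in narrow peaks were often not detectable.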
